A study of Homo sapiens with 6 samples.

Results

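The genes described here are the subunits of the transcription factor NF-kB and the proteins that hold it in check: NFKB1, NFKB2, RELA, RELB and REL, the inhibitors NFKBIA, NFKBIB and NFKBIE, the regulator BCL3 and the deubiquitinase TNFAIP3. They were chosen by name, with earlier results of these data known. Their probe sets were found through the array's probe annotation and the current gene symbol. Of the 10 genes, 9 had probe sets annotated to them alone, out of 11963 genes represented. These 9 genes held 15 probe sets of the 22215 tested, and 2 further probe sets were annotated to both BCL3 and MIR8085, a microRNA gene that lies inside the BCL3 gene. Of the shared pair, 204908_s_at carries the accession of a BCL3 transcript, and both are given by their identifiers and kept out of the counts.

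The series compared growing WI-38 fibroblasts, labelled wild type, with WI-38 fibroblasts that overexpress RASv12 and are labelled senescent, 3 samples each with 1 array per sample. WI-38 is a normal diploid fibroblast strain from human fetal lung, and RASv12 is a constitutively active RAS GTPase whose RAS gene the labels do not name. Per the labels' protocols the cells were infected by retroviral transfer and kept at 3% oxygen, and whether control cells carried an empty vector is not given in the sources used here, so infection and RASv12 cannot be told apart. The control samples are labelled with one dye (Cy5) and the RASv12 samples with another (Cy3), so if the dyes were used as written, dye and group cannot be told apart either. The RNA went through 2 rounds of amplification. Separate cultures are not named for the replicates, and a p-value here therefore reflects the spread among 6 samples that may be partly technical.

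NF-kB proteins bind DNA as dimers of REL family subunits. RELA, RELB and REL carry an activation domain, while NFKB1 and NFKB2 encode the long precursors p105 and p100, which are shortened to the DNA-binding subunits p50 and p52. In resting cells the inhibitors of the IkB family keep dimers in the cytoplasm, and the IKK kinase marks them for destruction when a signal arrives. Several of the inhibitors, and some of the subunits, are themselves NF-kB target genes, which makes the pathway a feedback loop, and in senescent fibroblasts NF-kB is known as a driver of secreted cytokines.

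The promoters of these genes were searched for kB motifs, and whether the motifs take part in such feedback was not tested. Promoter windows from RefSeq (GRCh38.p14) were found for 8 of the 10 genes, and the 250 bases before each annotated start were searched on both strands for the 10-base kB consensus. Matches were found for 6 of the 8 genes (NFKB1, NFKB2, REL, NFKBIA, NFKBIB and TNFAIP3), while 6.28% of the 27305 genes with a window held one, as did 5.21% of 35116 windows. The looser pattern GGGNNNNNCC, which every consensus match also satisfies, was present in 8 of these 8 genes and in 57.8% of all genes, so it separates little. A match is a description of the letters in the window. The 100 bases just before the start are shown for the 4 genes that have a match at their only or their most upstream annotated start, with the consensus matches in capitals.
NFKBIA, chr14:35404750-35404849, minus strand: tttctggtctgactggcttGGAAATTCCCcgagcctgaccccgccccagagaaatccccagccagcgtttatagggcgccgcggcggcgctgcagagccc
TNFAIP3, chr6:137867159-137867258, plus strand: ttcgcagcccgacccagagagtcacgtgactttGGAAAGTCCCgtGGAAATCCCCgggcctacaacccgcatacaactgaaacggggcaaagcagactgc
NFKB1, chr4:102501259-102501358, plus strand: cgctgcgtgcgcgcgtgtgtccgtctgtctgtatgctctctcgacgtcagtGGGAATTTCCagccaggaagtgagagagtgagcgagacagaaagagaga
REL, chr2:60881474-60881573, plus strand: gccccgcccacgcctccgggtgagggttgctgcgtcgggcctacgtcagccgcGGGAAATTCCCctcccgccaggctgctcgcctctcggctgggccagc

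TNFAIP3 had 2 matches side by side, beginning 67 and 55 bases before its start, and NFKBIA had 1 that began 81 bases before it. In REL the capitals cover 2 overlapping matches, 1 on each strand, the first of them beginning 47 bases before the start. NFKB2 and NFKBIB held their matches only at later annotated starts. For NFKB2 each such start held 2 separate stretches of matching bases, and the 30 bases around all of them, and around the NFKBIB match, are shown because their letters differ in the middle.
NFKB2, start 2, chr10:102394461-102394490, plus strand: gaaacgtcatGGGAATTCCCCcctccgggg
NFKB2, start 2, chr10:102394490-102394519, plus strand: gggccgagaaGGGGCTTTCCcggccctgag
NFKB2, start 3, chr10:102395519-102395548, plus strand: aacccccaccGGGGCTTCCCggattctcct
NFKB2, start 3, chr10:102395674-102395703, plus strand: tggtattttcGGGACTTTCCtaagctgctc
NFKBIB, start 2, chr19:38899931-38899960, plus strand: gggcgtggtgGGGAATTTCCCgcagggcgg

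Neither of the 2 RELA windows nor the BCL3 window held a consensus match. This says only that these letters are not in these windows.

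**Figure D1:**
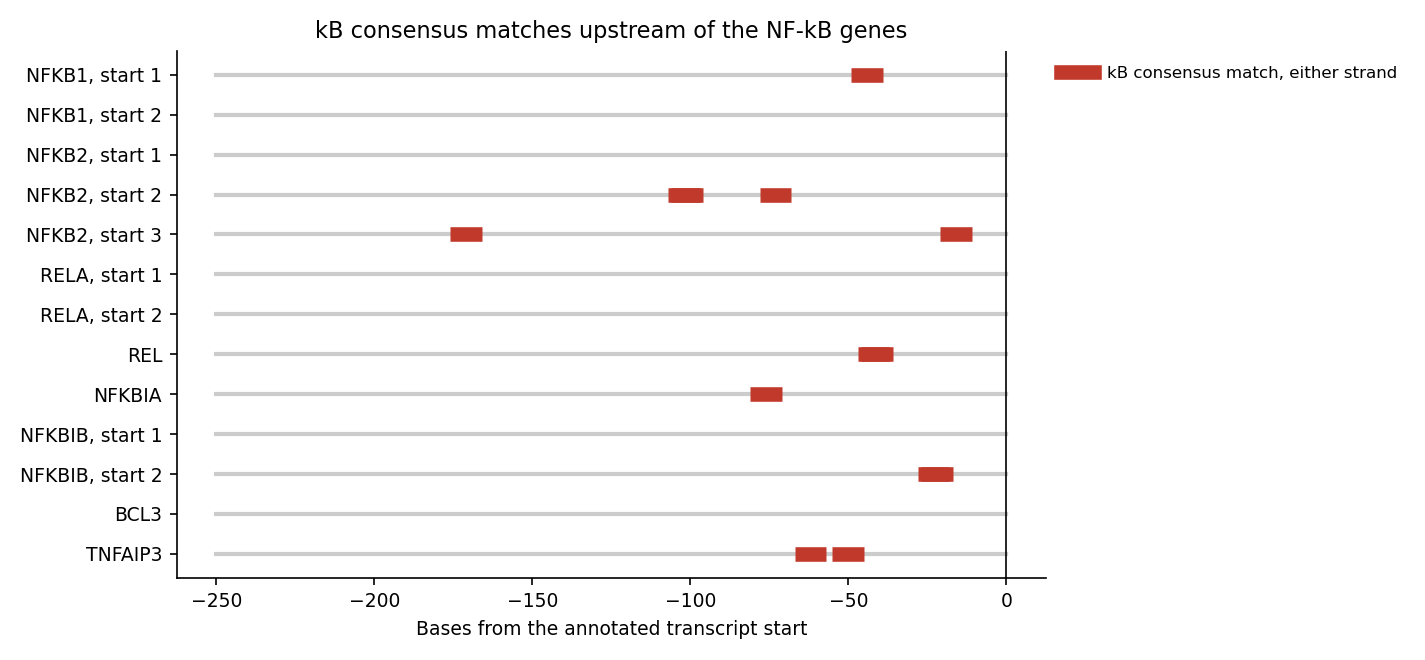
Position of kB consensus matches (red bars, either strand) in the 250 bases before each annotated transcript start (grey lines), in bases from the start at 0, for the 8 genes with a RefSeq promoter window. TNFAIP3 has 2 matches at bases -67 and -55, while RELA and BCL3 have none.

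In RASv12 cells the inhibitor genes NFKBIA, NFKBIE and TNFAIP3 rose together with the subunit genes RELB, NFKB2 and NFKB1. RELA, the main activating subunit, rose on 1 of its 2 probe sets, and REL stayed within the low control signals. On the brightest probe set of each gene, 6 of the 9 genes rose, none fell and 3 (RELA, REL and NFKBIB) did not pass, by limma with p-values adjusted (Benjamini-Hochberg) over the 22215 probe sets. Over all genes 13.0% rose and 14.9% fell by the same test. The 9 genes were chosen with earlier results of these data known, so the contrast is a description. These are bulk samples, in which a change in the share of cells that express a gene cannot be told apart from a change in RNA per cell. The median change of the 9 genes was 0.88 on the log2 scale, against 0.020 over all genes. TNFAIP3 rose most, by 2.77 ± 0.13 (SE, n = 3 per group), and NFKBIA rose by 1.52 ± 0.21.

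Over probe sets, 9 of the 15 rose and none fell, while 11.3% of all probe sets rose and 13.0% fell. At an unadjusted p under 0.05 in the same limma fit, 11 of the 15 were higher and 1 was lower. On the brightest probe sets 8 of 9 genes were higher and 0 lower. The shares of all probe sets and genes at this threshold were not computed, so these counts cannot be read against a background. REL, within the low controls, gave the 1 lower probe set and 1 of the 8 genes. All RASv12 samples lay above all control samples for 11 of the 15 probe sets, and the reverse was seen for none, against 18.0% of all probe sets with RASv12 on top and 20.1% with control on top. On the brightest probe sets this held for 8 of the 9 genes, beside 19.7% of all genes. Changes are differences of log2(intensity + 16), which understates the change of dim genes. Where a group lay, by its mean or on all 3 arrays, at or under 27.98, the brightest of 27 control probe sets for bacterial transcripts on any array, only a bound on the fold is given, and none where both groups lay there, as 5 of the 15 probe sets did.

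The labels and arrays were checked first. HRAS, a RAS gene used in many senescence models, was at 222, 189 and 234 in control and 816, 753 and 990 in RASv12 samples (adjusted p = 2.4e-04, limma). Whether the HRAS probe set also detects the introduced RAS was not tested. Of 12 fibroblast markers none lay within the low controls on all 6 arrays, with COL1A2 between 1292 and 4737 in intensity, and 10 of the 12 fell in RASv12 cells, THY1 among them at a log2 change of -1.84. Of 13 leukocyte markers 8 lay within the low controls on all arrays, PTPRC among them (at most 14.0). CSF1R, MS4A1 and LCP1 were called higher (adjusted p from 0.0076 to 0.038, limma), each with both group means within the low controls, and none of the 13 was called lower. The summed intensity of the leukocyte markers ran from 116 to 225 in control and from 184 to 313 in RASv12 samples. The 6 endothelial markers summed to between 106 and 133 in control and between 68.6 and 108 in RASv12, and the 7 epithelial markers to between 127 and 154 and between 68.7 and 90.4, and each list had 1 marker that fell, TEK by at least 2.58-fold (adjusted p = 0.0034, limma) and KRT19 by at least 1.88-fold (adjusted p = 0.016), and none that rose. EPCAM lay under the low controls on every array, and PECAM1 was at 51.1 in RASv12 replicate 3 and under them elsewhere. The part of these markers in the results was not tested. The 18 hybridization control probe sets, which report RNA added at a fixed amount, had a mean shift of -0.34 (log2, RASv12 minus control). Scaling the arrays to them moved the median over all probe sets from 0.014 to 0.17 and the split of calls from 2510 higher and 2893 lower to 4375 higher and 1675 lower. With that scaling 11 of the 15 probe sets rose, beside 19.7% of all probe sets, and none fell, beside 7.54%. Of the 9 genes 8 rose and none fell, and the shares of all genes with that scaling were not computed.

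**Figure D2:**
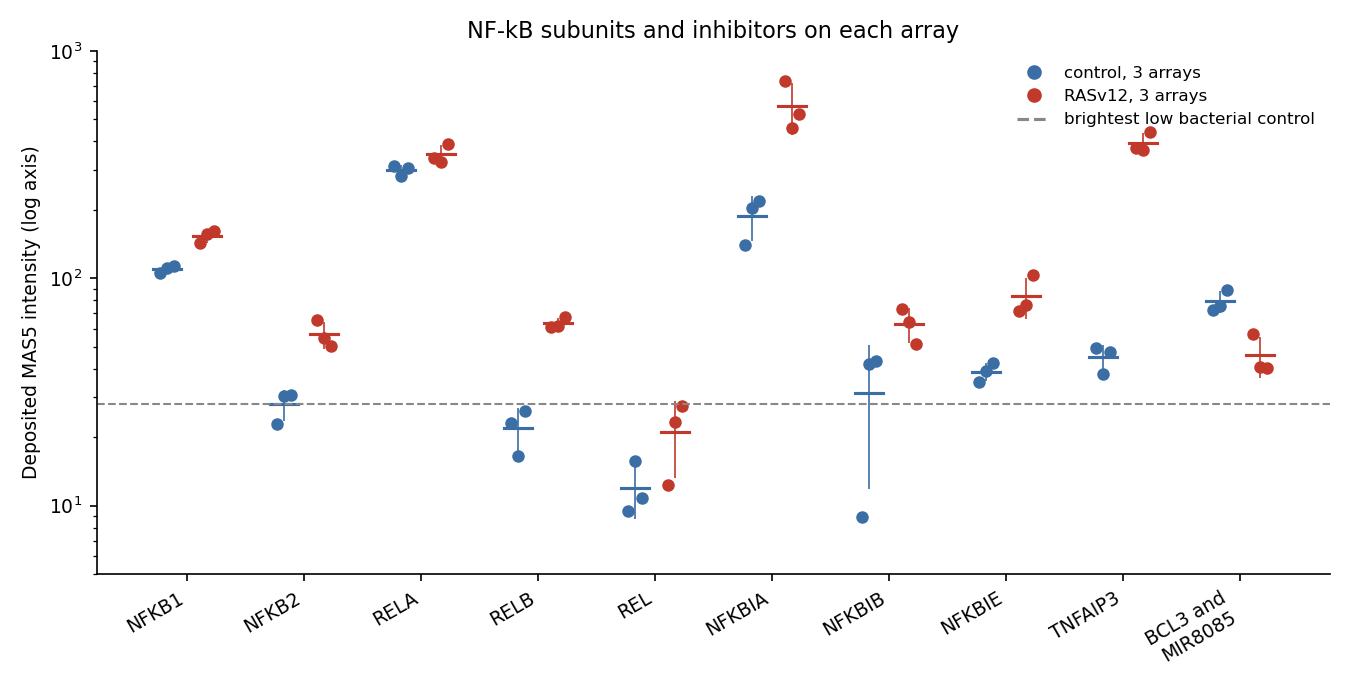
Deposited intensity (log axis) of the brightest probe set of each gene on each array, with control arrays in blue and RASv12 arrays in red, points for single arrays, horizontal bars for the mean vertical lines for 1 SD (n = 3) and a dashed line at the brightest low bacterial control (27.98). The RASv12 arrays lie above all control arrays for 8 of the 9 genes. They lie below them for 204908_s_at, the only one drawn of the 2 probe sets shared by BCL3 and MIR8085. It was drawn because it was called lower, and the groups overlap on the other.

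NFKBIA encodes IkB-alpha, the inhibitor that is destroyed first on stimulation and rebuilt by NF-kB itself. Its single probe set read 140, 203 and 219 in the control samples and 737, 457 and 526 in the RASv12 samples, each in replicate order. Every RASv12 sample lay above every control sample by more than 2-fold, while RASv12 replicate 1 was the highest and control replicate 1 the lowest of their groups. The rise of 1.52 ± 0.21 (adjusted p = 0.0028, limma) was 1.35 without control replicate 1 and 1.36 without RASv12 replicate 1. The promoter shown above holds 1 kB match.

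NFKBIE encodes IkB-epsilon, a slower inhibitor of the same family. On its single probe set it read 35.0, 39.1 and 42.2 in control and 71.4, 75.8 and 103 in RASv12 samples. The groups did not overlap, and RASv12 replicate 3 stood above the others of its group. NFKBIE rose by 0.91 ± 0.13 with adjusted p = 0.0032 (limma).

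NFKBIB encodes IkB-beta, and both of its probe sets carry the _x_ suffix that the array's maker gives to probe sets with probes shared with other sequences, so its values are uncertain. The brighter, 214448_x_at, read 8.87, 42.0 and 43.3 in control and 73.4, 64.2 and 51.1 in RASv12 samples. Control replicate 1 stood far below the other control samples, and the groups did not overlap. The log2 change was 0.88 with a 95% interval from 0.032 to 1.74 and adjusted p = 0.13 (limma), and it was 0.46 without control replicate 1, with adjusted p = 0.13 as well. It passed with scaling to the hybridization controls (1.07, adjusted p = 0.045) and without the dimmest 50% of probe sets (adjusted p = 0.049). The dimmer probe set had both group means within the low controls and adjusted p = 0.54.

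TNFAIP3 encodes A20, an enzyme that edits ubiquitin chains and shuts off signalling to IKK. Its brighter probe set, 202644_s_at, read 49.2, 37.9 and 47.4 in control and 373, 366 and 441 in RASv12 samples, a rise of 2.77 ± 0.13 with adjusted p = 2.7e-05 (limma). The other, 202643_s_at, read 31.6, 24.4 and 30.7 in control and 136, 115 and 145 in RASv12 samples. It rose by 1.74 ± 0.11 (adjusted p = 9.5e-05, limma). Its control mean of 28.9 lay just above the low controls, with control replicate 2 within them. The rise ran from 1.09 to 2.18 over 15 alternative settings and leave-outs. Both probe sets put all 3 RASv12 samples above all control samples, by sizes that differ. The 3 genes whose values over the 6 arrays lay closest to TNFAIP3, each gene centred on its own mean, were SAT1, a polyamine acetyltransferase, SERPINB7, a serine protease inhibitor, and RRAD, a RAS-related GTPase, with root mean square differences of 0.127, 0.133 and 0.136 on the log2 scale among 11963 genes. They share with it mainly the step between the groups, which was 2.87 for SAT1 and 2.91 for SERPINB7. RRAD lay within the low controls in all control samples, so its rise has only a bound of at least 5.01-fold and its likeness was computed with control values at background.

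BCL3 encodes an atypical IkB protein that sits in the nucleus on p50 and p52 dimers. The probe set with a BCL3 accession, 204908_s_at, read 72.3, 75.8 and 89.1 in control and 56.8, 40.6 and 40.3 in RASv12 samples. It ran against the other inhibitors, with all control samples above all RASv12 samples. The log2 change was -0.58 ± 0.17 with adjusted p = 0.045 (limma), and this call ended with a pseudocount of 1 (adjusted p = 0.085), with the replicate number as a block (adjusted p = 0.11), with scaling to the hybridization controls (-0.36, adjusted p = 0.086) and without any 1 sample other than RASv12 replicate 1 (adjusted p from 0.074 to 0.14). The other shared probe set, 204907_s_at, had overlapping groups, a log2 change of 0.013 and adjusted p = 0.97.

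**Figure D3:**
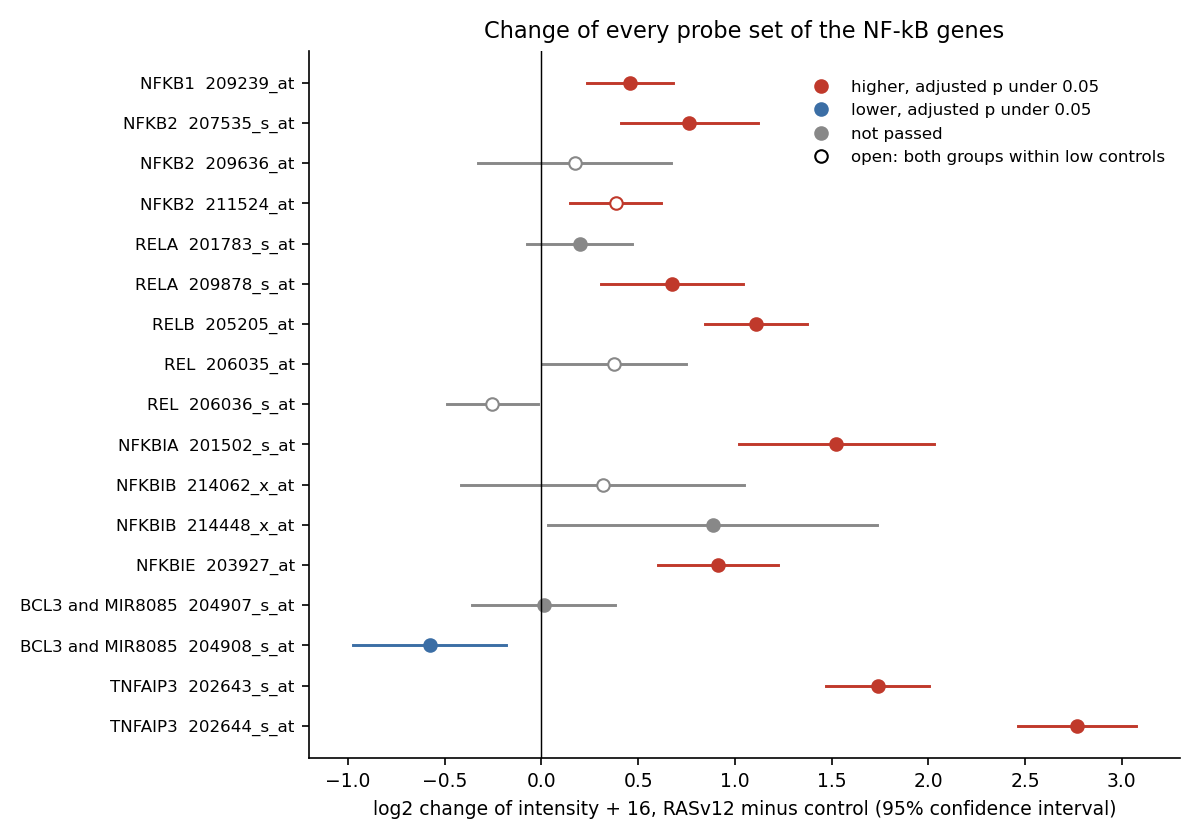
Log2 change of intensity + 16 (RASv12 minus control) with its 95% confidence interval for all 17 probe sets, coloured by the call at an adjusted p of 0.05, with open symbols where both groups lay within the low bacterial controls. TNFAIP3 and NFKBIA lie farthest to the right, and 1 of the 2 probe sets shared by BCL3 and MIR8085 lies to the left of 0. The point of RELB rests on control samples that all lay within the low controls. For the brightest NFKB2 probe set the control mean lay within them, but only 1 control sample did.

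Among the subunits, RELB changed most. RELB works mainly with p52 in the alternative branch of the pathway and is itself an NF-kB target. It read 23.1, 16.6 and 26.2 in control and 60.9, 61.9 and 67.5 in RASv12 samples. All control samples lay within the low controls and all RASv12 samples above them, so the rise of RELB was at least 2.26-fold (adjusted p = 6.4e-04, limma).

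NFKB2, which encodes the p100 precursor of p52, read 22.8, 30.2 and 30.7 in control and 65.2, 54.4 and 50.3 in RASv12 samples on its brightest probe set. It was at least 1.90-fold higher (adjusted p = 0.011, limma), with the control mean of 27.9 just within the low controls. Its probe set 209636_at read 14.9, 15.2 and 3.18 in control and 15.7, 12.8 and 13.3 in RASv12 samples and did not pass (adjusted p = 0.63). The third, 211524_at, stayed at or under 10.3 on every array and was called higher at adjusted p = 0.032, with no fold since both groups lay within the low controls. That call ended with a pseudocount of 64, with the replicate number as a block (adjusted p = 0.10) and without any 1 sample other than RASv12 replicate 2 (adjusted p from 0.066 to 0.10).

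NFKB1, which encodes the p105 precursor of p50, read 105, 111 and 114 in control and 142, 157 and 162 in RASv12 samples, with no overlap and a mean of 110 ± 4.46 (SD, n = 3) against 153 ± 10.1. The rise of 0.46 ± 0.093 (adjusted p = 0.013, limma) was small, and it missed the threshold with a pseudocount of 1 (adjusted p = 0.051).

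RELA encodes p65, the activating subunit of the common p50 and p65 dimer, whose activity is set mainly by its release from inhibitors. Its brighter probe set, 201783_s_at, read 311, 280 and 304 in control and 339, 323 and 389 in RASv12 samples, without overlap but close together. The log2 change was 0.20 with a 95% interval from -0.072 to 0.47 and adjusted p = 0.27 (limma). The dimmer probe set, 209878_s_at, read 45.3, 58.9 and 68.4 in control and 80.3, 94.5 and 114 in RASv12 samples and rose by 0.67 ± 0.15 (adjusted p = 0.021). This call ended without control replicate 2 or RASv12 replicate 2 or 3 (adjusted p from 0.057 to 0.064). The mean of both probe sets was called at 0.44 (adjusted p = 0.026 over genes). The brighter one was called at 0.54 (adjusted p = 0.021) once arrays were scaled to the hybridization controls, where the median of all probe sets stood at 0.17.

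REL, whose c-Rel protein is best known from lymphocytes, lay within the low controls on every array with both of its probe sets. The brighter read 9.49, 15.6 and 10.8 in control and 12.3, 23.2 and 27.4 in RASv12 samples (adjusted p = 0.14, limma), and the other lay at a log2 change of -0.25 (adjusted p = 0.11). No change of REL was detectable at this signal.

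Whether pairs of these genes changed by unequal amounts was asked within arrays, as the log2 value of one gene minus that of the other on the same array. The difference was then compared between groups by an exact two-sided permutation test for 8 pairs, and 3 against 3 cannot go below p = 0.10. NFKBIA changed by 1.33 more than RELA and TNFAIP3 by 1.25 more than NFKBIA, in both cases with no overlap between groups (exact permutation p = 0.10, and 0.20 adjusted over the 8 pairs). The second difference was 0.75 with a pseudocount of 64 and 0.73 with probe sets averaged. RELB minus RELA also had no overlap (exact permutation p = 0.10), but RELB lay within the low controls in all control samples, so its size was set by the pseudocount (0.91, with 1.35 at a pseudocount of 1 and 0.42 at 64). The BCL3-accession probe set 204908_s_at moved against NFKBIB by -1.46 (exact permutation p = 0.10; -0.81 with a pseudocount of 64 and -0.88 with probe sets averaged), and control replicate 1, where NFKBIB was low, was the array farthest from the others of its group. For NFKBIA against NFKBIB (0.64) and NFKBIE against NFKBIB (0.027) the groups overlapped. They did so too for NFKB2 against NFKB1 and REL against RELA, whose sizes are not read, since REL lay within the low controls on every array and NFKB2 did so by its control mean. These 4 pairs had exact permutation p from 0.20 to 0.90 and, adjusted over the 8 pairs, from 0.32 to 0.90. NFKBIE against NFKBIB, NFKB2 against NFKB1 and REL against RELA each changed sign under other settings. No pair passed the adjustment.

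**Figure D4:**
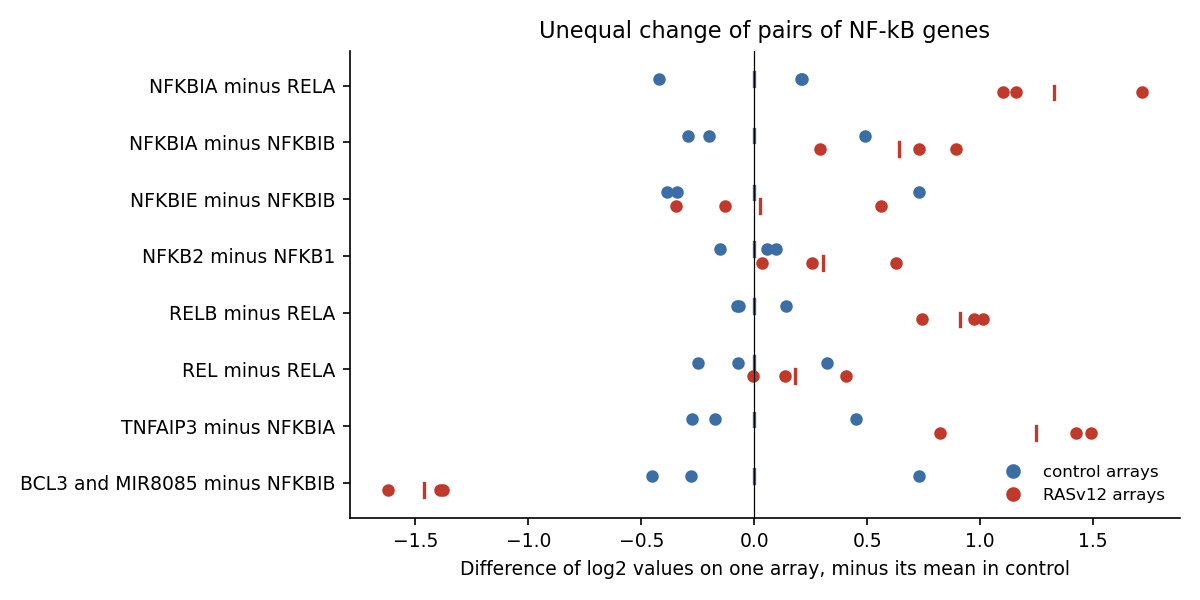
Difference between the log2 values of 2 genes on the same array, minus its mean in control, for 8 pairs, with control arrays in blue and RASv12 arrays in red, points for single arrays and short vertical bars for group means. The RASv12 arrays lie apart from the control arrays for NFKBIA minus RELA, RELB minus RELA, TNFAIP3 minus NFKBIA and the brighter shared BCL3 probe set minus NFKBIB.

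The other genes of the pathway were read on their brightest probe sets. Of 23 measured genes of the IKK complex, upstream kinases and adaptors, 6 rose and 2 fell, 15 missed the threshold, and the median was 0.22. Over all genes 13.0% rose and 14.9% fell, so the count of falls is not above the background. Among the rises, the kinase MAP3K8 was called with both groups within the low controls. The rises numbered 4 to 6 with 1 sample left out and 4 with the replicate number as a block. They numbered 4 without the dimmest 50% of probe sets and 8 with the probe sets of each gene averaged. The kinase RIPK2, which relays signals from intracellular bacterial sensors, rose by 1.15 ± 0.13 (adjusted p = 0.0011, limma), and IRAK1, a kinase of the interleukin 1 receptor, rose by 0.74 ± 0.12 (adjusted p = 0.0044). The 2 that fell were IKBKB, the catalytic IKK-beta subunit, and the adaptor TRAF5. IKBKB was at 102 ± 5.87 (SD, n = 3) in control and 37.9 ± 7.78 in RASv12 samples without overlap, a log2 change of -1.10 (adjusted p = 0.0043) that was -0.68 with a pseudocount of 64 and -0.50 with its probe sets averaged (adjusted p = 0.033), and TRAF5 was at least 1.96-fold lower (adjusted p = 9.9e-04). The other subunits of the kinase, CHUK at -0.16 and IKBKG at -0.10, did not pass (adjusted p = 0.58 and 0.76).

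Of 20 measured further inhibitors and modifiers, 3 rose, 2 fell and 15 did not pass (median 0.19), a share of rises close to the 13.0% of all genes. TNIP1, a partner of A20, read 130, 99.6 and 108 in control and 454, 422 and 442 in RASv12 samples and rose by 1.83 ± 0.12 (adjusted p = 1.1e-04, limma). The ubiquitin ligase ITCH, which works in the same complex, rose by 0.91 ± 0.16 (adjusted p = 0.0075, limma). The probe set of ITCH carries the _x_ suffix, so its values are uncertain. IRAK3, an inhibitory pseudokinase, was called with both groups within the low controls. PDLIM2, which promotes the breakdown of nuclear p65, fell by 1.21 on the log2 scale (adjusted p = 0.0021), and the coactivator CREBBP fell by 0.48 (adjusted p = 0.019). The call for CREBBP ended under 7 of 17 alternatives, among them the fits without control replicate 1, control replicate 2, RASv12 replicate 2 and RASv12 replicate 3 (adjusted p from 0.051 to 0.060) and the mean of its probe sets (-0.14, adjusted p = 0.41). With scaling to the hybridization controls, 10 of the 23 upstream genes and 9 of these 20 rose, and 1 of the 20 fell. Over all probe sets 19.7% rose and 7.54% fell with that scaling. The shares of all genes on their brightest probe sets, the like comparison, were not computed for it.

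Among 36 measured NF-kB target genes 26 rose, 2 fell and 8 missed the threshold. By the same limma fit 13.0% of all genes rose and 14.9% fell. The list was chosen with earlier results of these data known. The median of the target genes was 1.75, against 0.020 over all genes, and 16 of the 36 lay within the low controls on all 3 control arrays. TNIP1 and the adaptor TRAF1 stand on this list and on an earlier one. The 4 with the largest test statistics, CXCL2, CXCL3, CCL20 and IL6, encode secreted cytokines and chemokines (adjusted p from 8.6e-07 to 2.5e-06, limma). IL6 was measured in both groups and rose by 5.65 ± 0.088. Its control values of 35.9, 30.7 and 33.2 lay just above the low controls. The rise ran from 4.69 to 6.17 over 17 alternative settings and leave-outs. The other 3 lay within the low controls in all control samples. CXCL2 was at least 45.0-fold, CXCL3 at least 61.3-fold and CCL20 at least 73.0-fold higher. The probe set of CXCL2 carries the _x_ suffix, so its values are uncertain. The 2 targets that fell were PTX3, a secreted pattern recognition protein, and TNFAIP8, an inhibitor of cell death. TNFAIP8 was read on a probe set with the _x_ suffix, so its values are uncertain. PTX3 read 479, 364 and 409 in control and 121, 144 and 140 in RASv12 samples, a log2 change of -1.52 (adjusted p = 3.7e-04), and TNFAIP8 changed by -0.50 (adjusted p = 0.014). The call for TNFAIP8 ended without control replicate 3 (adjusted p = 0.051), with the replicate number as a block (0.051) and with scaling to the hybridization controls (-0.28, adjusted p = 0.066). PTX3 has a kB consensus match before its start, as did 16 of the 33 target genes with a promoter window.

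**Figure D5:**
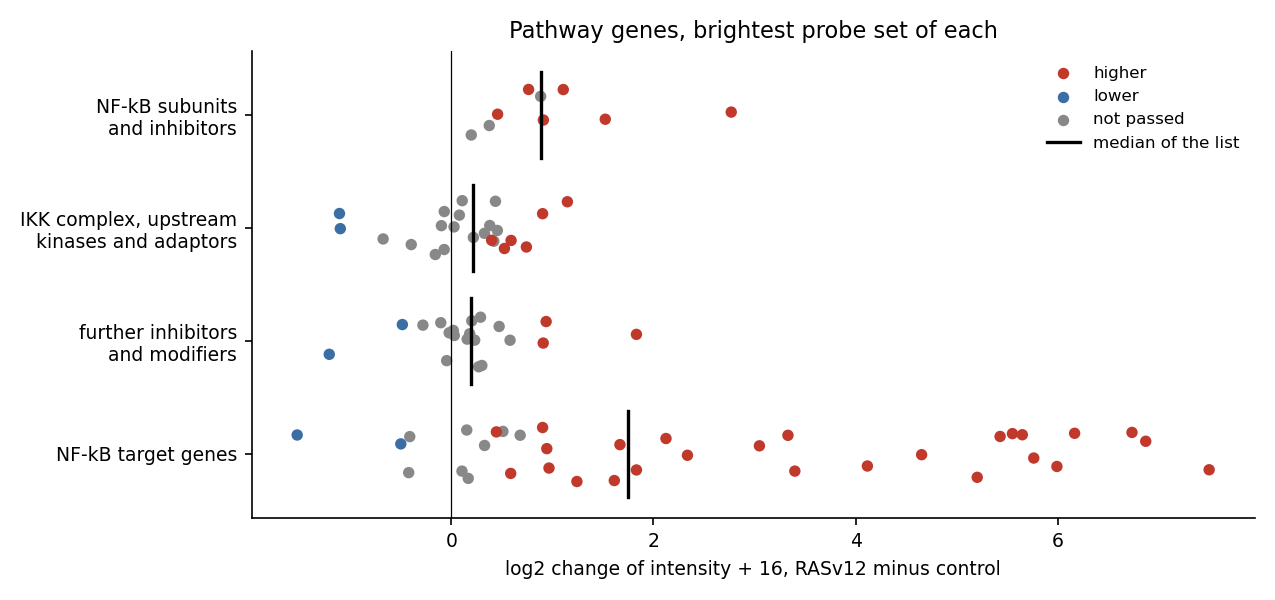
Log2 change of intensity + 16 (RASv12 minus control) of each measured gene on its brightest probe set, for the NF-kB subunits and inhibitors and 3 further lists of the pathway, coloured by the call at an adjusted p of 0.05, with a black bar at each list's median. The medians are 0.88, 0.22, 0.19 and 1.75 from top to bottom, and the first is the value of NFKBIB, which did not pass.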

How the data were processed

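The authors deposited 1 table of linear signal intensity for 22283 probe sets on 6 arrays, made with MAS5 per the submitters' processing notes. The sources used here give neither its version nor a scaling target. The mean intensity after trimming 2% of values at each end was 100.0 on every array. Median intensity per array ran from 26.1 to 33.4, and 48.6% to 54.1% of probe sets lay above the low bacterial controls. Ratios of 5′ to 3′ signal ran from 0.999 to 1.24 for GAPDH and from 0.71 to 0.96 for ACTB. The number of arrays limits the precision.

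The values of log2(intensity + 16) were quantile normalized over all probe sets in the table, control probe sets included. After leaving out 68 control probe sets, they were tested by lmFit and eBayes of limma 3.58.1 (R 4.3.3). The p-values were adjusted over all probe sets tested, with a threshold of 0.05. The procedure was tested on simulated data. Permutation tests used scipy 1.17.1. A gene is described by its probe set with the highest mean. Symbols came from the platform's annotation, updated through gene identifiers, and 1043 probe sets with several symbols stayed unnamed. Named genes are all members, up to 4 genes of each pathway list by moderated t and those against its majority, 3 genes most like the member that rose most, defining marker genes and HRAS. CHUK, IKBKG, MAP3K8, CSF1R, MS4A1, LCP1, TEK and KRT19 were named after their values were seen, as were MIR8085 and the shared probe sets. Some genes of the lists were not analysed here. Members and lists were chosen with earlier results of these data known.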

Additional observations from a re-analysis of the deposited data

How the results depend on the processing

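Another pseudocount, scaling, filter, probe set summary or variance model, and leaving out each sample, gave 5 to 8 of the 9 genes higher and none lower, and NFKB2, RELB, NFKBIA, NFKBIE and TNFAIP3 stayed called on their brightest probe sets under each of these. Leaving out 1 sample gave 7 to 8 of the 15 probe sets higher, 1678 to 2313 higher and 2026 to 2678 lower over all probe sets, and 1 to 2 lower among further inhibitors and 1 to 3 lower among target genes. Scaling to the hybridization controls gave 4375 higher and 1675 lower over all probe sets, 10 upstream genes and 9 further inhibitors higher, and 1 further inhibitor and 1 target gene lower. Without the dimmest 25% of probe sets 5 further inhibitors were higher, and with a pseudocount of 1 there was 1 lower. Counting the probe sets shared by BCL3 and MIR8085, chosen after seeing the data, made 1 member probe set lower.

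Signs turned for changes that had not passed: CHUK (0.052 with scaling to the hybridization controls, -0.27 to 0.0098 when 1 sample was left out), IKBKG (0.19 with that scaling, -0.23 to 0.057 when 1 sample was left out), 209636_at of NFKB2 (-0.055 to 0.32 when 1 sample was left out) and 204907_s_at (-0.12 to 0.11, and -0.010 on the values as deposited). Among pairs, NFKBIE minus NFKBIB ran from -0.24 to 0.39 with 1 sample left out and was -0.19 with a pseudocount of 1, REL minus RELA was -0.024 with a pseudocount of 64 and -0.37 with probe sets averaged, and NFKB2 minus NFKB1 was -0.018 with probe sets averaged. The cause was not tested.

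Same-numbered samples did not deviate together (correlations of -0.23, -0.028 and -0.070 over all probe sets), so the replicate numbers were not taken as pairs. With the replicate number as a block 1715 probe sets were higher and 2133 lower, 6 of the 9 genes and 8 of the 15 probe sets were higher, and 1 target gene was lower. Signal over background limits REL, the dimmer probe sets of NFKB2 and NFKBIB, and the size of the change for RELB, NFKB2 and the dimmer probe set of TNFAIP3.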
